A study of Mus musculus with 2 samples.

Results

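EGR1 binding was examined at the genes of the mitogen-activated protein kinase (MAP kinase) cascade in the frontal cortex of 6-week-old male mice. The members were the protein-coding genes of GENCODE release M21 named Mapk, Map2k, Map3k or Map4k followed by a number, and 43 of 21951 protein-coding genes met this rule. They comprised 13 MAPK, 7 MAP2K, 18 MAP3K and 5 MAP4K genes. The animals were 129SvEv/C57BL/6N F1 hybrids with no treatment named, and chromatin from pooled cortices was immunoprecipitated with an antibody against EGR1 in 2 replicate ChIP-seq experiments. Input DNA of the same tissue served as the other sample and was not analysed here. The peak list merged both replicates, so a peak had a position and an irreproducible discovery rate (IDR) but no read count and no value per replicate. Strong peaks with similar ranks in the replicates receive a low IDR, and the list held 12014 peaks with an IDR of 2% or less. The depth behind a peak is therefore unknown and no spread between replicates could be given. The list has no expression values, so the tissue label could not be checked against marker genes, and neurons and glia cannot be told apart.

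The cascade passes a signal from the cell surface to the nucleus through kinases that phosphorylate each other in turn. MAP4Ks and small GTPases act on MAP3Ks, MAP3Ks phosphorylate MAP2Ks, and MAP2Ks phosphorylate the MAPKs, which phosphorylate transcription factors and other substrates. In neurons the ERK branch is activated by synaptic activity and neurotrophins, and its activation of ELK1 and SRF is a well-known route to transcription of the immediate-early gene Egr1 itself. Genes of the ERK branch thus lie upstream of the factor whose binding was mapped. EGR1 is a zinc-finger transcription factor that binds GC-rich sequence.

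A peak was assigned to a gene when its centre lay in the gene body or within 10 kb of a transcription start site (TSS) of the gene. By this rule 29 of 43 members, or 67.4% (95% Wilson interval 52.5 to 79.5%), had at least 1 EGR1 peak, compared with 39.6% of all protein-coding genes. A peak within 1 kb of a TSS was found for 24 members, or 55.8% (95% Wilson interval 41.1 to 69.6%), against 28.1% of all protein-coding genes. In all, 52 distinct peaks were assigned in 53 gene-peak pairs, since the peak of Mapk11 also lay within 10 kb of its neighbour Mapk12. Of the members, 13 had 1 peak, 10 had 2, 4 had 3 and 2 had 4. Having 3 or more peaks was seen for 6 of 43 members and for 4.82% of all protein-coding genes. No test was made, because genes of a family are not replicates of a condition.

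The sequences below are those of peaks that hold the exact 9-bp EGR1 motif, and of the peak with the lowest IDR in the MAP2K tier. Each is the plus strand of mm10, without the bases that the annotation places in a UTR. The coordinates given with a sequence are those of the printed stretch. At Mapk6 and at the promoter of Map2k1 this stretch is shorter than the peak. The motif was searched as GCGTGGGCG and GCGGGGGCG on both strands, and capitals mark each match. A match on the minus strand reads CGCCCCCGC here. The peak at Mapk6 (chr9:75410006-75410258), which encodes the atypical kinase ERK3, is shown because it held 2 matches, 1 on each strand.
Mapk6: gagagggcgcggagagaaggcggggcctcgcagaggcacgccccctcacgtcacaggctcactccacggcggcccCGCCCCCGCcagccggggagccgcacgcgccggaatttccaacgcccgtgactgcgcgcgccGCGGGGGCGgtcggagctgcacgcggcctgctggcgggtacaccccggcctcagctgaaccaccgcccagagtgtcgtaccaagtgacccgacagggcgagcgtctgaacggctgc
The peak in the first intron of Mapk8 (chr14:33446797-33446938), which encodes JNK1, and the downstream peak of Map2k1 (chr9:64252664-64252914), which encodes the ERK kinase MEK1, held 1 match each on the minus strand.
Mapk8: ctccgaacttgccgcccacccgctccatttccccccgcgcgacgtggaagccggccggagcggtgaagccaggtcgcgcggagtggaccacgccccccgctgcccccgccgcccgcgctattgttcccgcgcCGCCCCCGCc
Map2k1, intron: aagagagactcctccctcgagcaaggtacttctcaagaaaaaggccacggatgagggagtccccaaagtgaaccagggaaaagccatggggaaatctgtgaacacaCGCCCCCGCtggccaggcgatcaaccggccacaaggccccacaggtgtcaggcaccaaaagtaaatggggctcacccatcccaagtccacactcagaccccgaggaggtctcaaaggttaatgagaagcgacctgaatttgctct
The peaks of Map2k4 (chr11:65787582-65787831), which encodes a kinase of JNK, and of Map3k5 (chr10:19934768-19935031), which encodes the stress kinase ASK1, held GCGGGGGCG on the plus strand.
Map2k4, intron: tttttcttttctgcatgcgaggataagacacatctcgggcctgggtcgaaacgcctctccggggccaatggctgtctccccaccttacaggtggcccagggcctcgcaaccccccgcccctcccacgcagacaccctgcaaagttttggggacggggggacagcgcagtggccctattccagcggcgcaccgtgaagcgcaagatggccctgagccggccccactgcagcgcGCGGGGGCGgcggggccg
Map3k5: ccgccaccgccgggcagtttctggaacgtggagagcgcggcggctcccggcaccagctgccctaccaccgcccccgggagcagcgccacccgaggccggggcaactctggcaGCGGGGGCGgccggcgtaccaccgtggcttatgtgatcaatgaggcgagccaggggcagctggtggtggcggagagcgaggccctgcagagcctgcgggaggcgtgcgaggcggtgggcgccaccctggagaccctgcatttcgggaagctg
A peak in a coding exon of Map3k10 (chr7:27657859-27658122), which encodes the mixed lineage kinase MLK2, held the other form, GCGTGGGCG. The peak over the TSS of the same gene (chr7:27674452-27674714) held this form too, and no other member peak did.
Map3k10, coding exon: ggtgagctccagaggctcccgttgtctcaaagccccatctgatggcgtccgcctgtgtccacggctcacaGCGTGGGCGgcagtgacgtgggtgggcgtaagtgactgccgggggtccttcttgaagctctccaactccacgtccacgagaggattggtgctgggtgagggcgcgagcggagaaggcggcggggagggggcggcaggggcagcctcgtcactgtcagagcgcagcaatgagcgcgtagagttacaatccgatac
The peaks of Map3k21 (chr8:125910816-125911065), which encodes another mixed lineage kinase, and Map4k4 (chr1:40000515-40000774), in coding exons, held GCGGGGGCG on the minus strand.
Map3k21: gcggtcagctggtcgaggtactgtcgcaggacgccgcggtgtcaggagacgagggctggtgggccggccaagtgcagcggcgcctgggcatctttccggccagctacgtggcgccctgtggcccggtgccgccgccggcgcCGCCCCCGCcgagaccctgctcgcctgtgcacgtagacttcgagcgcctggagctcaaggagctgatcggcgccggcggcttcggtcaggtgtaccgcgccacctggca
Map4k4: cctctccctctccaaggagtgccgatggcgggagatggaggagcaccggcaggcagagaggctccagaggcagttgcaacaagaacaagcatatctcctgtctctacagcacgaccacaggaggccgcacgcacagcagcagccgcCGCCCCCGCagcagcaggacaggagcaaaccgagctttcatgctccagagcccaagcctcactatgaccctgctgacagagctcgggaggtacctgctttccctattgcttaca
The peak with the lowest IDR of the MAP2K tier, at the promoter of Map2k1 (chr9:64253632-64253786), held no exact match. In it, capitals mark sites that differ from the motif at 1 base, and these read GTGGGGGCG and ACGGGGGCG on the minus strand.
Map2k1, promoter: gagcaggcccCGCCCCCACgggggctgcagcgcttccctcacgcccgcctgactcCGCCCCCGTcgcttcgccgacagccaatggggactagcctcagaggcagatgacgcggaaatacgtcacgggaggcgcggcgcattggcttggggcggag

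Over all members, 10 of 52 peaks held the exact motif, or 19.2% (95% Wilson interval 10.8 to 31.9%), compared with 16.6% of the 11938 peaks on assembled chromosomes. This share was near the background of the list. The 10 peaks lay at 9 genes, the 8 named above and Map3k2, a MEKK family kinase. Of their 11 sites, 9 read GCGGGGGCG and 2 read GCGTGGGCG. Sites with at most 1 mismatch were present in 42 of the 52 member peaks and in 69.8% of all peaks. The GC box GGGCGG, which Sp-family factors bind and which can overlap an EGR1 site, was present in 39 of the 52 member peaks (95% Wilson interval 61.8 to 84.8%) and in 55.8% of all peaks. The member peaks, selected for lying in or near a gene, also had a higher median GC content, 65.1% against 60.4% for all peaks. The part of position and GC content in the shares with a GC box or a 1-mismatch site was not tested. The cyclic AMP response element TGACGTCA was in 0 member peaks and in 1.30% of all peaks. The AP-1 site TGANTCA, where N is any base, was in 0 of the 52 as well and in 6.48% of all peaks. With 52 sequences, the upper limit of the 95% Wilson interval for a count of 0 is 6.88%, so neither element was shown to be rarer at the members.

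**Figure D1:**
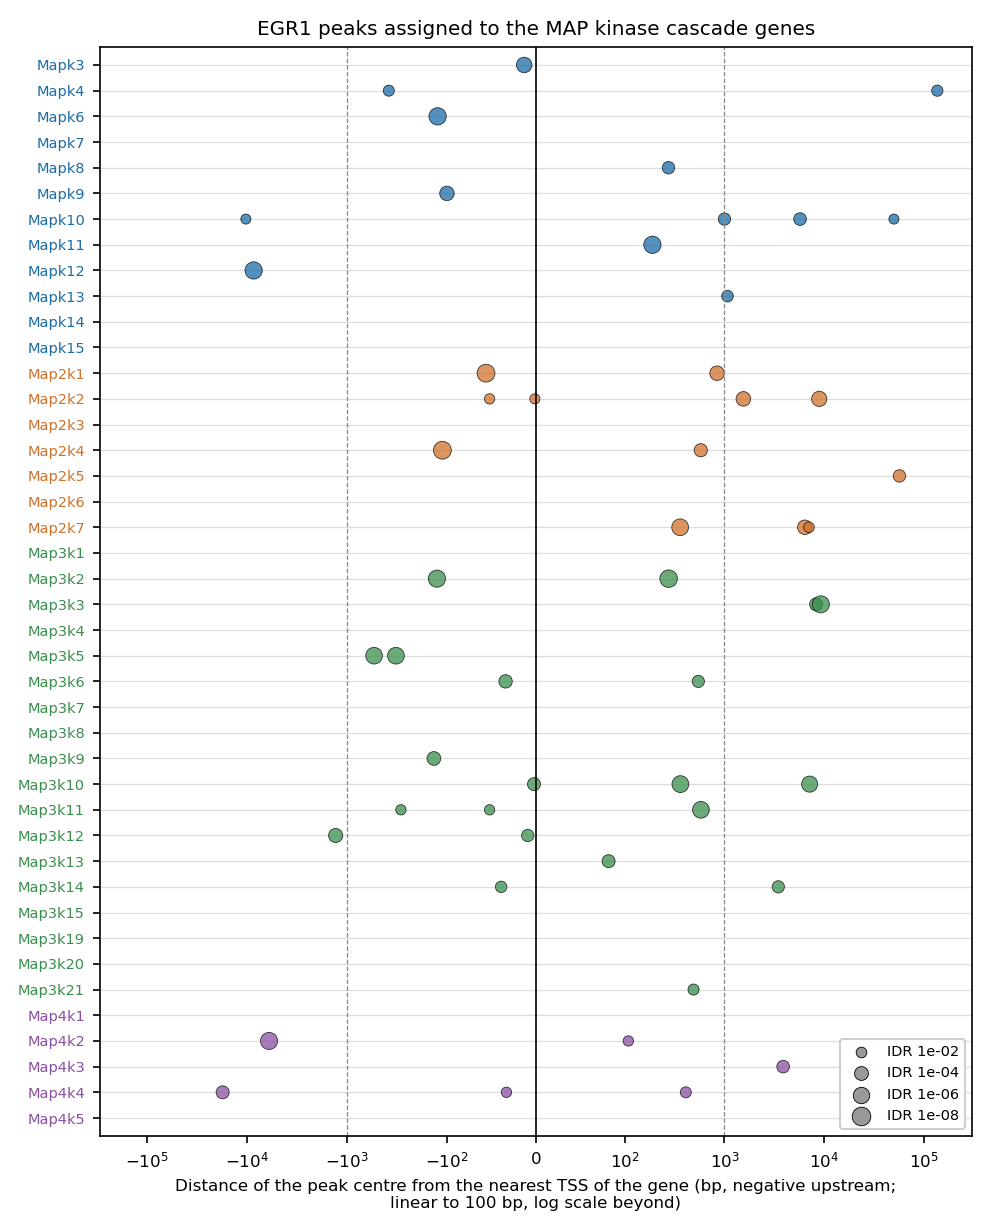
Position of each EGR1 peak relative to the nearest TSS of its gene for the members, 1 line per gene named here and coloured by tier. The size of a point grows as the IDR falls, and the dashed lines mark 1 kb. Most points lie between the dashed lines, and 14 genes have no point.

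Among the MAPK genes, which encode the last kinases of the cascade, 10 of 13 had a peak, or 76.9% (95% Wilson interval 49.7 to 91.8%). The peak of Mapk3, the gene of ERK1, had its centre 13 bp upstream of the nearest TSS (chr7:126759690-126759953) and an IDR of 5.41e-06, and it did not hold the exact motif. That TSS belongs to a transcript that is not protein-coding. The centre lay in an intron, 220 bp downstream of the gene start and 170 bp from the nearest start of a protein-coding transcript. Mapk6 had a peak 124 bp upstream with an IDR of 1.58e-07 and 35 CpGs, the most of any member peak. Mapk11, the gene of p38 beta, had a peak 190 bp into the gene (chr15:89149173-89149436) with an IDR of 1.80e-07. The same peak lay 8601 bp upstream of Mapk12, the gene of p38 gamma, which had no other.

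The 3 JNK genes differed in where the peaks lay. Mapk9, the gene of JNK2, had 1 peak 100 bp upstream of a TSS with an IDR of 3.43e-05, and Mapk8 had 1 peak 275 bp downstream with an IDR of 0.00079. Mapk10, which encodes JNK3, the isoform most restricted to the nervous system, had 4 peaks in introns of its 303 kb. Its peaks were 999, 5707, 10293 and 49606 bp from the nearest TSS, with IDRs of 0.00106, 0.0006, 0.02 and 0.0194. The Mapk10 peaks had 0 to 5 CpGs each and none held the exact motif, whereas the peaks of Mapk8 and Mapk9 had 23 and 22 CpGs. The peak at 999 bp lies just inside the 1-kb limit, and the TSS it is near belongs to a transcript that is not protein-coding, with the nearest start of a protein-coding transcript 3260 bp away. Mapk13, the gene of p38 delta, had 1 intronic peak 1071 bp from a TSS with an IDR of 0.00253, just outside that limit.

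Mapk4, the gene of the atypical kinase ERK4, had a peak 382 bp upstream with an IDR of 0.00543. Another peak, in the 3′UTR and 134893 bp from the nearest TSS of the gene, had an IDR of 0.00454. Mapk7, which encodes ERK5, Mapk14, which encodes p38 alpha, and Mapk15, an atypical member, had no peak. Their nearest peaks were 38076, 28871 and 52852 bp from a TSS.

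Among the MAP2K genes, whose products phosphorylate the MAPKs, 5 of 7 had a peak, or 71.4% (95% Wilson interval 35.9 to 91.8%). Map2k1 and Map2k4 showed the same arrangement of a promoter peak and a downstream peak. At Map2k1 the promoter peak lay 56 bp upstream of a TSS with an IDR of 5.61e-08, and the intronic peak 842 bp downstream with an IDR of 3.28e-05. At Map2k4 the promoter peak lay 111 bp upstream (chr11:65788321-65788495) with an IDR of 5.66e-08, and the intronic peak 579 bp downstream with an IDR of 0.000268. In both genes the peak with the lower IDR was the one without the exact motif. The upstream peaks ranked 481 and 487 of 12014.

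Map2k7, the other kinase of JNK, had a peak 360 bp into the gene (chr8:4239117-4239261) with an IDR of 5.29e-07. Its further peaks, 6367 and 7003 bp from a TSS, lay downstream of the gene and were 40 and 257 bp from a TSS of Snapc2. Map2k2, the gene of MEK2, had 4 peaks. Those 1 and 52 bp from its TSSs had IDRs of 0.0179 and 0.0134, near the upper limit of the list. A peak in a coding exon, 1545 bp from a TSS, had an IDR of 2.90e-05, and the lowest IDR, 8.56e-06, was at a peak 8877 bp away that lay 461 bp from a TSS of Zbtb7a. Map2k5, the kinase of ERK5, had 1 intronic peak 56386 bp from its nearest TSS with an IDR of 0.000829. Map2k3 and Map2k6, the main kinases of p38, had no peak, and the nearest lay 31626 and 64173 bp from a TSS.

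The MAPK and MAP2K genes can also be read by branch. This grouping was made after the values were seen. In the ERK branch, Mapk3, Map2k1 and Map2k2 had a peak within 1 kb of a TSS, as did all 5 genes of the JNK branch (Mapk8, Mapk9, Mapk10, Map2k4 and Map2k7), compared with 28.1% of all protein-coding genes. The count for the JNK branch includes Mapk10, by its peak 999 bp from the TSS of a transcript that is not protein-coding, and Map2k7, whose peak was closer to a TSS of Gm49320, at 324 bp, than to its own. Of the 6 genes of the p38 branch, 3 had a peak by the 10-kb rule, beside 39.6% of all protein-coding genes, and 1, Mapk11, had a peak within 1 kb. Each gene was placed in 1 branch only, so Map2k4 was counted for JNK and not for p38. In the ERK5 branch, 0 of 2 genes had a peak within 1 kb. The branches were not tested against each other.

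Among the MAP3K genes, which receive stress, cytokine and growth signals, 11 of 18 had a peak, or 61.1% (95% Wilson interval 38.6 to 79.7%). The lowest IDR was at Map3k2 on chromosome 18, where peaks 276 bp downstream, in the 5′UTR, and 126 bp upstream had IDRs of 1.06e-07 and 2.26e-07. Map3k5 had peaks at 536 and 324 bp from its TSSs with IDRs of 5.87e-07 and 5.27e-07. Its relative Map3k6, the gene of ASK2, had peaks 34 and 547 bp from a TSS with IDRs of 0.000192 and 0.00113, of which the first is near an internal start of the gene. Map3k3, another MEKK, had peaks with IDRs of 0.000408 and 2.62e-07, but both lay downstream of the gene, at 177 and 416 bp from a TSS of Limd2.

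All 4 genes of the mixed lineage kinases, which activate the JNK branch, had a peak within 1 kb of a TSS, beside 28.1% of all protein-coding genes. By the same measure the counts were 1 of 4 for the MEKK family, 2 of 3 for the ASK family and 2 of 2 for the dual leucine zipper kinases. Of the MAP3K genes outside these families, 1 of 5 had such a peak. Like the grouping by branch, the grouping by family was not fixed in advance, so these counts are a description only. The families were not tested against each other. Map3k10 had 3 peaks, with IDRs of 4.39e-07 at 362 bp downstream, 1.87e-06 at 7117 bp and 0.000369 over the TSS. Map3k11, the gene of MLK3, also had 3, all within 1 kb of a TSS. Its lowest IDR, 5.20e-07, was in the 5′UTR 581 bp from a TSS, and the others were 0.0144 and 0.0148. Map3k9 had 1 peak 135 bp upstream with an IDR of 0.000113. Map3k21 had 1 peak 490 bp downstream with an IDR of 0.00552, the highest among the lowest IDRs of the members.

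Map3k12, which encodes the dual leucine zipper kinase DLK of axonal injury signalling, had a peak 9 bp from its TSS with an IDR of 0.000956, and a further peak 1300 bp upstream lay 7 bp from a TSS of Tarbp2. Map3k13, which encodes the related LZK, had a peak 82 bp downstream with an IDR of 0.00036. Map3k14, the gene of the NF-kappaB-inducing kinase, had a peak 39 bp upstream with an IDR of 0.00352 and another 40 bp from a TSS of Spata32. The 7 MAP3K genes without a peak were Map3k1, Map3k4, Map3k7 (TAK1), Map3k8 (Tpl2), Map3k15, Map3k19 and Map3k20. Their nearest peaks lay between 13718 bp, at Map3k19, and 513706 bp, at Map3k15, from a TSS.

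Among the MAP4K genes, whose products act on MAP3Ks, 3 of 5 had a peak (95% Wilson interval 23.1 to 88.2%). Map4k2 had a peak 109 bp from a TSS with an IDR of 0.0137. Its lowest IDR, 2.36e-07, was at a peak 6030 bp upstream that lay 6 bp from a TSS of Men1. Map4k3 had 1 intronic peak 3864 bp from a TSS with an IDR of 0.000628. Map4k4 had 3 peaks, at 33, 410 and 17572 bp from the nearest TSS, with IDRs of 0.0131, 0.00616 and 0.000352. All 3 lay inside the gene, and the TSSs they are near start internal transcripts, since the peaks were 45670 to 100174 bp from the start of the gene. Map4k1, which is known mainly from blood cells, and Map4k5 had no peak, with the nearest 19531 and 15486 bp from a TSS.

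**Figure D2:**
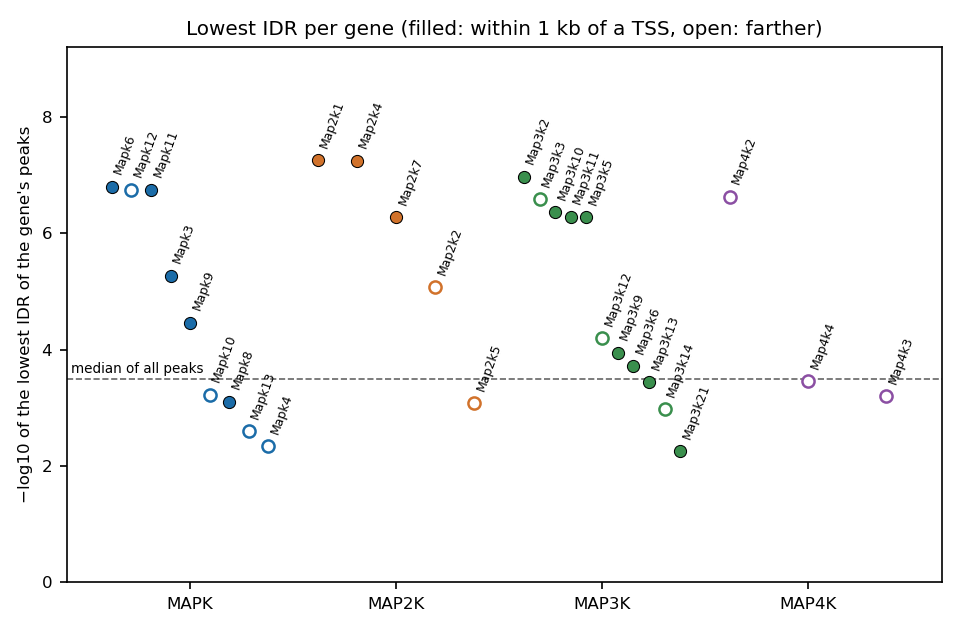
Negative log10 of the lowest IDR among the peaks of each member named here with a peak, by tier, where higher points are more reproducible. Filled points are peaks within 1 kb of a TSS of the gene and open points are farther away. The dashed line is the median of all peaks on assembled chromosomes, 0.000325, and Map2k1 and Map2k4 lie highest of the genes shown. A point is the lowest value among the peaks of its gene, which is not the same measure as this median over single peaks. Some points are peaks nearer to a TSS of another gene.

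The share of genes with a peak within 1 kb of a TSS was 61.5% for MAPK (8 of 13), 57.1% for MAP2K (4 of 7), 55.6% for MAP3K (10 of 18) and 40.0% for MAP4K (2 of 5). The 95% Wilson intervals all overlapped, from 33.7 to 75.4% for MAP3K, the largest tier, to 11.8 to 76.9% for MAP4K, the smallest, so no order of the tiers could be read from these counts. The median of the lowest IDR per gene was 1.99e-05 for MAPK, 5.29e-07 for MAP2K, 6.40e-05 for MAP3K and 0.000352 for MAP4K, and the ranges of the tiers overlapped. Some of these lowest values belong to peaks nearer to a TSS of another gene. The MAP3K median is the Map3k12 peak 7 bp from a TSS of Tarbp2, and the MAP2K median is the Map2k7 peak nearer to Gm49320. In the MAPK median the peak shared by Mapk11 and Mapk12 counts for both genes. Having 2 or more peaks was seen for 2 of 13 MAPK, 4 of 7 MAP2K, 8 of 18 MAP3K and 2 of 5 MAP4K genes and for 13.7% of all protein-coding genes. The MAPK share, 15.4%, was near this background. The median CpG ratio of the peaks, the number of CpGs over that expected from the C and G content, was 0.43 for MAPK, 0.70 for MAP2K, 0.77 for MAP3K and 0.36 for MAP4K. The MAPK value includes the 4 peaks of Mapk10, all with ratios of 0.25 or less.

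**Figure D3:**
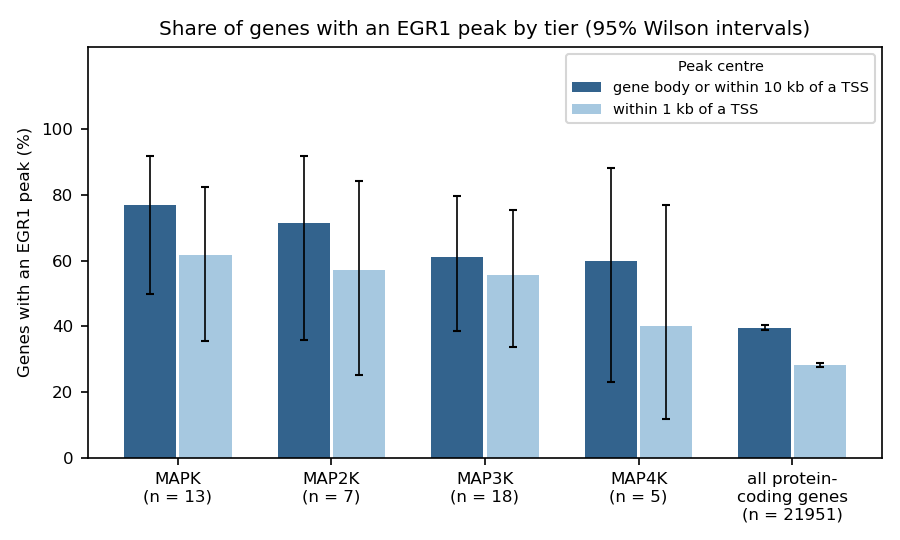
Percentage of genes with an EGR1 peak in each tier and among all protein-coding genes, with 95% Wilson intervals as error bars. Dark bars count peaks in the gene body or within 10 kb of a TSS and light bars peaks within 1 kb. The intervals of the 4 tiers overlap for both.

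Over all protein-coding genes, the share with a peak rose with gene length and with CpG content at the start. The members had a median length of 57.1 kb, against 17.4 kb for all protein-coding genes, and 23 of the 43 were in the highest of 4 equal bins of all genes by length, above 45.1 kb. In that bin 55.7% of all genes had a peak, as did 15 of the 23 members. In the bin from 6.51 to 17.4 kb, 34.8% of all genes and 7 of 7 members had one. The shortest bin had 25.9% of all genes and 1 of 3 members with a peak, and the remaining bin 42.0% and 6 of 10. Among the members the share did not rise in order from bin to bin, but with 3 to 23 members per bin a trend could not be judged. The median length of the members was 47.7 kb with a peak and 58.2 kb without. The members also had CpG-rich starts, with a median ratio of 0.80 in the 500 bp to each side of the gene start, against 0.55 for all protein-coding genes, and 0 members were in the lowest of 4 equal bins by this ratio. In the highest bin 60.9% of all genes and 16 of 23 members had a peak. In the bin below, from 0.55 to 0.77, the values were 55.6% of all genes and 12 of 16 members, and in the next, from 0.22 to 0.55, they were 30.6% of all genes and 1 of 4 members. The part of length and CpG content in the difference between the members and all genes was not tested.

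Over all protein-coding genes, the median CpG ratio at the gene start was 0.71 with a peak and 0.33 without. Over the members it was 0.80 with a peak and 0.78 without. The starts of Map3k1, Map3k7 and Map4k5 had ratios of 1.06, 1.00 and 0.96 and no peak, while Mapk10 had 4 peaks and a ratio of 0.32. The exact motif occurred in the window around the gene start for 11 of 43 members, or 25.6% (95% Wilson interval 14.9 to 40.2%), and for 9.15% of all protein-coding genes. These windows had a median CpG ratio of 0.80 for the members and 0.55 for all genes. The part of CpG content in the motif shares was not tested.

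**Figure D4:**
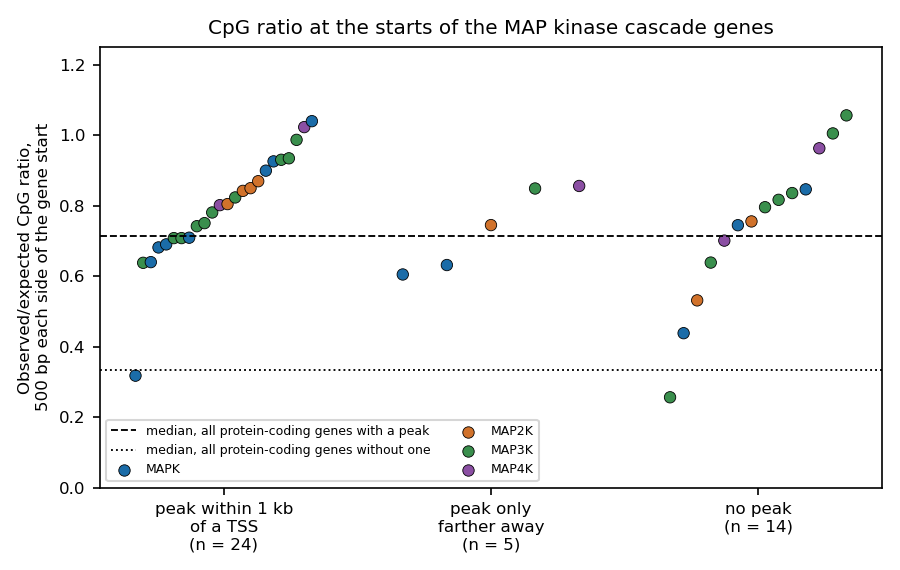
Observed/expected CpG ratio in the 500 bp to each side of the gene start for the 24 members with a peak within 1 kb of a TSS, the 5 with a peak only farther away and the 14 without a peak, 1 point per gene, coloured by tier. The dashed and dotted lines are the medians of all protein-coding genes with and without a peak, 0.71 and 0.33. Most members without a peak lie well above the dotted line.

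As regions, the 52 member peaks were 142 to 445 bp wide with a median of 250 bp. Their median IDR was 0.000356, against 0.000325 for all peaks on assembled chromosomes, and 14 of them, or 26.9%, had an IDR of 1e-06 or less, against 21.5% of the list. Within 1 kb of a member TSS lay 34 of the 52, of which 20 were upstream and 14 downstream of the nearest TSS, while 55.6% of all peaks lay within 1 kb of a protein-coding TSS. Some of the 20, such as the peak of Mapk3, lay inside the gene, upstream only of a TSS beyond the gene start. The median distance was 396 bp for the member peaks, to a TSS of the member, and 552 bp for all peaks, to the nearest protein-coding TSS. The rule that assigned the member peaks selects for closeness to a TSS, so neither comparison shows that they lie closer than other peaks. By feature of the member gene, 19 peaks lay in introns, 13 upstream, 7 in coding exons, 6 in 5′UTRs, 6 downstream of the gene and 1 in a 3′UTR. The CpG ratio was higher in the peak than in flanking sequence 5 kb away, averaged over both sides, for 44 of the 52, with medians of 0.67 in peaks and 0.22 in the flanks. Over all peaks on assembled chromosomes it was higher for 10194 of 11938, with medians of 0.60 and 0.19, so the members did not stand apart from the list here. Not every peak need belong to the member it was assigned to. For 11 of the 52 peaks the nearest protein-coding TSS was that of a gene outside the cascade, and Map2k7, Map3k3 and Mapk12 had no peak whose nearest protein-coding TSS was their own.

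For the other genes of the pathway, a list of 31 names was used, of which 30 were found as protein-coding genes. The name not found, Zak, is the older symbol of the member Map3k20. Of the 30, 21 had a peak and 17 had one within 1 kb of a TSS, beside 39.6% and 28.1% of all protein-coding genes. Of the RAS GTPases, which recruit RAF to the membrane, Hras and Nras had no peak. Of the RAF kinases, which act as MAP3Ks of the ERK branch, Braf had a peak 43 bp upstream with an IDR of 0.00105 and Araf had none. Peaks were found at 4 of 6 kinases related to the MAP3K and MAP4K tiers, and the lowest IDR was 3.69e-08, at Tnik. Of 7 scaffold genes 6 had a peak, with the lowest IDR of 2.79e-08 at Mapk8ip3, which encodes a scaffold of JNK. Of 11 kinases that MAPKs activate, 8 had a peak, and the lowest IDR was 2.61e-08, at Mknk2, whose product phosphorylates the translation factor eIF4E.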

How the data were processed

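EGR1 ChIP-seq of frontal cortex from pooled 6-week-old male mice was used, as 1 peak list that merged 2 replicates. Per the study's methods, the authors aligned trimmed reads to mm10 by Bowtie, ran SPP on each replicate and retained peaks at an IDR of 2% or less. The submitters' processing notes also name cutadapt, Bowtie2 2.2.9 and bedtools 2.26.0. The deposited IDR of each peak is read like a q-value, and low values mark reproducible peaks.

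Starts were taken as 0-based, as in the BED format, and printed counted from 1. Genes and TSSs of all transcripts came from GENCODE M21 and sequence from GRCm38.p6, the same build as mm10. Peaks on scaffolds (76) carry no sequence here. Shares over genes or peaks have 95% Wilson intervals, which cover counting error only, and no test was run, because the list holds no replicate values and family members are not replicates. The named genes were the 3 with the lowest IDR in each tier, genes with 3 or more peaks and those with the exact motif, and every other member was accounted for, except that some genes are counted but not reported here by name. Members, lists and alternatives were chosen with earlier results of these data known. Assignment and motif search were tested on simulated data. Python 3.11.15, numpy 2.4.6, pandas 2.3.3, scipy 1.17.1 and matplotlib 3.10.9 were used.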

Additional observations from a re-analysis of the deposited data

How the results depend on the processing

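Another distance, TSS set, overlap rule or IDR limit changed most counts by less than 1.5 times. Counting the gene body alone left 33 peaks at the members, with 6 MAPK and 7 MAP3K genes. An IDR of 0.001 or less left 34 peaks. Restricting the list to its lower 50% by IDR left 25 peaks at 19 members, 14 of them with a peak within 1 kb of a TSS, and the MAPK and MAP4K counts were then 6 and 1. The motif count fell to 2 peaks with GCGTGGGCG alone and rose to 42 with 1 mismatch. The median CpG ratio was 0.43 in peaks over 1 kb from every TSS of the member. Counting a peak only for the gene with the nearest protein-coding TSS, chosen after seeing the data, gave 26 members. The share of all protein-coding genes under these other settings is not given here. These counts therefore do not show how the members compare with all genes under them. The peak list has no replicate values, so no replicate could be left out and depth could not be weighed. No paired analysis was possible because the replicates were merged. Assignment by position does not show that a peak acts on the gene.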
